A study of Mus musculus with 23 samples.

Results

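The expression profile described here is that of tumour cells taken after 21 days of nintedanib treatment, set against tumour cells from untreated animals. Its members are 8 arrays of the 23 in the series, 5 from long-term treated tumours and 3 from untreated tumours, chosen by the array titles alone. The tumours were grown from Py2T, a single murine breast cancer cell line, implanted in the mammary fat pad of female FVB/N mice. Treated mice received nintedanib at 50 mg per kg body weight, begun once tumours could be measured. Long-term tumours were treated for 21 days and short-term tumours (4 arrays of tumour cells) for 7 days, while the untreated mice carried tumours as large as the long-term ones. Because the untreated tumours were matched by size and not by time, the drug and the tumours' time in the animal cannot be told apart. Tumour cells were separated from endothelial cells by fluorescence-activated sorting, and the endothelial cells of the same treatment groups filled the other 11 arrays. The replicates are called biological in the labels. The labels give no sorting markers, ages or pooling of animals.

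Nintedanib is a small molecule that blocks the kinases of the VEGF, FGF and PDGF receptors. VEGF signalling keeps tumour vessels growing, so the drug is used to reduce the blood supply of a tumour. Cells that are short of oxygen stabilise the transcription factor HIF, which turns on genes for glycolysis, for mitochondrial turnover and for vessel growth. The series title names metabolic symbiosis, the exchange of lactate between glycolytic and oxidative cells, and resistance to anti-angiogenic therapy. Expression was measured as log2 signals of Affymetrix arrays, so a difference of 1 on this scale is a 2-fold change in signal.

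The markers of the sorted population were as follows. Krt8, a keratin of simple epithelia, had log2 signals of 11.31 to 11.65 on the 5 long-term arrays and 11.29 to 11.42 on the 3 untreated arrays, against endothelial means of 9.48 (long-term) and 8.91 (untreated). Its partner Krt18 ran from 10.37 to 10.75 in long-term and 10.63 to 11.20 in untreated tumour cells, against 8.47 and 8.14 in the long-term and untreated endothelial cells. The keratin gene Krt19 (3.56 to 3.76 in long-term, 3.52 to 3.80 in untreated tumour cells) and the epithelial adhesion gene Epcam (4.07 to 5.26 in long-term, 3.97 to 4.87 in untreated tumour cells) were no higher in the tumour cells than in the endothelial cells, whose means were 5.16 and 4.08 for Krt19 and 4.71 and 4.71 for Epcam in long-term and untreated samples. The label of an epithelial tumour cell thus rests on Krt8, Krt18 and Cdh1 and not on Epcam or Krt19. Pecam1, which marks endothelium, had 4.16 to 4.31 in long-term and 4.32 to 4.43 in untreated tumour cells, while its mean in endothelial cells was 11.38 after long-term treatment and 11.45 without treatment.

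The 8 arrays were alike in quality. Pairs of long-term arrays correlated across genes at 0.986 to 0.993, pairs of untreated arrays at 0.983 to 0.988, and pairs across the groups at 0.981 to 0.992. Within each group the SD of a gene had a median of 0.14 log2 units. Over all genes the tumour cell arrays had a median log2 signal of 4.76, with a 10th percentile of 3.12 and a 90th of 8.36. No pair of arrays shared more than 0.622% of their values, so none was a repeat deposit of another.

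After 21 days of treatment the tumour cells had a short list of changed genes. Of 19938 genes tested, 18 passed an adjusted p under 0.05 (0.0903% of the genes), 15 of them higher (0.0752%) and 3 lower (0.015%) in long-term cells. The rises included Bnip3, which targets mitochondria for degradation, the glycolytic genes Pfkp and Aldoa, the secreted genes Saa3 and Cxcl14, the chaperone gene Hspa1a and the prostaglandin synthase gene Ptgs2. The falls were the small nuclear RNA Scarna13, the elastase gene Mmp12 and the small nucleolar RNA Snora44. All 18 genes had long-term and untreated arrays that did not overlap, a pattern found in 6.03% of the genes tested. The genes were picked by a test on the same arrays, so this lack of overlap is no separate support. Of the 18, 7 rises and 3 falls were at least 2-fold.

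Across all genes the median log2 difference between long-term and untreated cells was -0.01, with quartiles of -0.09 and 0.10, and 46.8% of differences were positive. At an unadjusted p under 0.05 there were 2020 genes (10.1%), 1190 higher (5.97%) and 830 lower (4.16%), and at an adjusted p under 0.1 there were 59, of which 49 were higher and 10 lower. The list of calls was sensitive to single arrays. Without untreated array 1 it held 30 genes, without short-term array 1 or 2 it held 10 or 8, and without long-term array 2 it held 11. Without untreated array 2 it held 5 genes, among them Bnip3, Cxcl14, Hspa1a and Mmp12, and without untreated array 3 it held 5, among them Bnip3, Cxcl14, Hspa1a and Nectin2. Bnip3, Cxcl14 and Hspa1a stayed called whichever of the 12 tumour cell arrays was left out. All 18 genes kept their direction in each of 21 alternative analyses, which says little, because these reuse the arrays by which the genes were picked. Of the 18, 2 stayed called in a fit of the 8 arrays alone and 2 with a block for the replicate number.

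**Figure D1:**
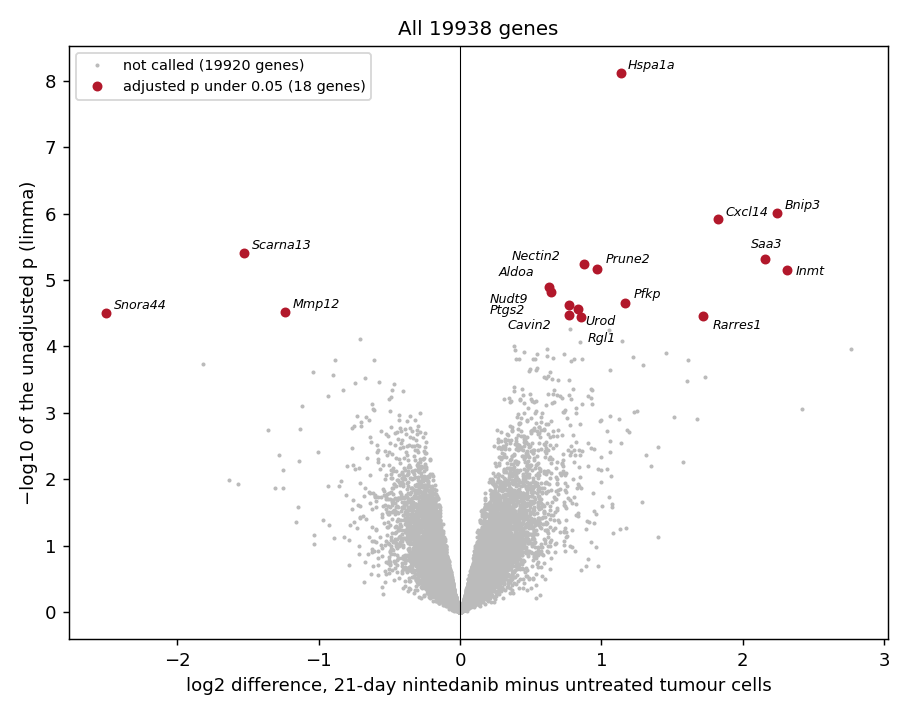
Each point is 1 of 19938 genes. The horizontal axis is the log2 difference of long-term minus untreated tumour cells, and the vertical axis is minus log10 of limma's unadjusted p. The 18 called genes are red and named, with 15 on the right (higher in long-term cells) and 3 on the left.

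**Figure D2:**
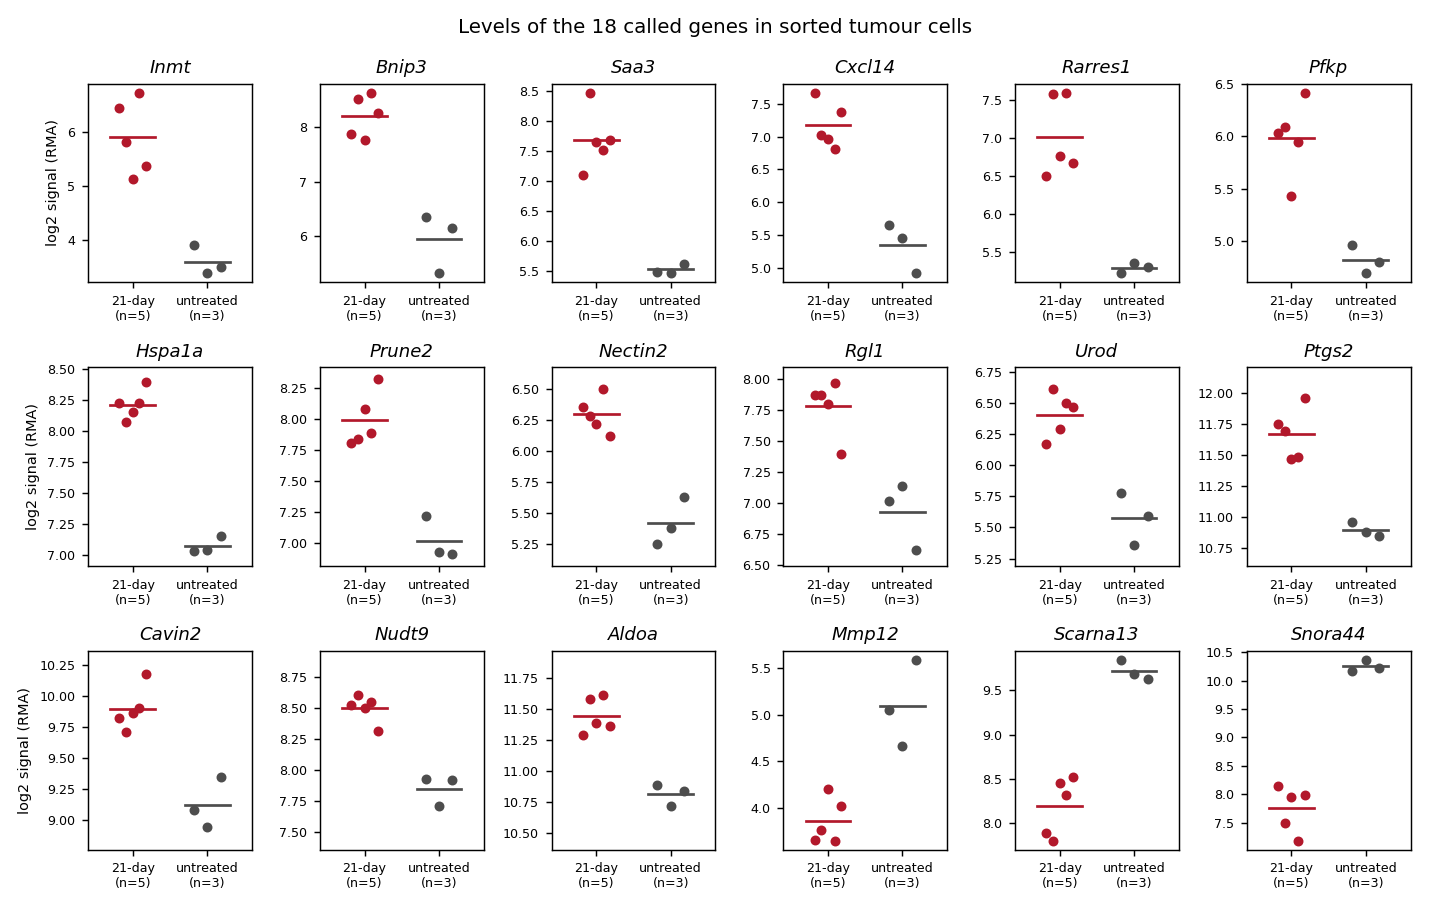
Each panel shows the log2 signal of 1 called gene on the 5 long-term arrays (red, left) and the 3 untreated arrays (grey, right), with group means as lines. In all 18 panels the groups do not overlap. The vertical axes differ between panels and do not start at 0.

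Bnip3 rose 4.74-fold, and most other HIF target genes had positive differences without passing the test. Bnip3, a protein of the outer mitochondrial membrane that marks mitochondria for autophagy and a HIF target, had log2 signals of 7.86, 8.50, 7.75, 8.62 and 8.24 on the long-term arrays and 6.36, 5.33 and 6.16 on the untreated arrays. Every long-term array stood above every untreated array, and the lowest untreated signal was that of array 2. The log2 difference was 2.24 ± 0.25 (SE, n = 5 and 3), at an adjusted p of 0.00811. A further cluster of probes for Bnip3, not used for the count of genes, gave 2.57.

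The promoters of Bnip3, of Pfkp and of Ldha, the enzyme that turns pyruvate into lactate, are shown because Bnip3 and Pfkp were called and Ldha, which was not called, is described with the glycolysis genes below. Each is a RefSeq window (GRCm38.p6) from 250 bases before to 50 bases after a start listed for the gene, read 5′ to 3′ on its strand. For Bnip3 that start is the first base of the gene's listed span. The Pfkp and Ldha windows lie inside the listed spans of their genes, chr13:6579874-6649060 and chr7:46842274-46855627. Capitals mark every match to ACGTG or GCGTG, the core letters bound by HIF, on either strand, so that a match on the opposite strand reads CACGT or CACGC. The windows are chr7:138909457-138909756 on the minus strand for Bnip3, chr13:6648722-6649021 on the minus strand for Pfkp, and chr7:46845554-46845853 on the plus strand for Ldha, which has another window not printed here.
Bnip3: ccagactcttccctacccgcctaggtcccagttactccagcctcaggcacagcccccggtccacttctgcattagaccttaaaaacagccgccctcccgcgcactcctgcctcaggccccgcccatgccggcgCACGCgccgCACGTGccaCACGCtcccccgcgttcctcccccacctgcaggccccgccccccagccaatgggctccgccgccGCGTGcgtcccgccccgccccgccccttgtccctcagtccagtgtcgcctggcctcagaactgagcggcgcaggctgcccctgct
Pfkp: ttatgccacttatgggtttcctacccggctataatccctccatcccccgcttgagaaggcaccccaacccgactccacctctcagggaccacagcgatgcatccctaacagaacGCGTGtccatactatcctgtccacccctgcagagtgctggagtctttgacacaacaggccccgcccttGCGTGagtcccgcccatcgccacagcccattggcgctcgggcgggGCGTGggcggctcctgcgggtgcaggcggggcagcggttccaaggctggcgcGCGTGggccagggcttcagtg
Ldha: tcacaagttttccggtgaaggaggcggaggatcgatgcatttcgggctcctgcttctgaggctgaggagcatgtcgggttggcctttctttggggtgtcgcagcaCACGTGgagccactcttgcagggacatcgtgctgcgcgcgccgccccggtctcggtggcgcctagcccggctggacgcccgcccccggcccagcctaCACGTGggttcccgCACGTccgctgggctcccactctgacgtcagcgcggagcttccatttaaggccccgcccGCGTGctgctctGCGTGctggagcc

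The Bnip3 window held 5 matches in 4 separate stretches, the Pfkp window 4 matches and the Ldha window 7 matches in 5 stretches. These letters are common, since 43.8% of the 32851 mouse windows and 46.7% of the 27025 genes with a window held at least 1 match. Of the listed HIF target genes with a window 21 of 22 had a match, and of the listed glycolysis genes 14 of 16. Among the genes called higher it was 10 of 15, and among the acute phase genes 3 of 21. A match describes the letters and not the binding of a factor.

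Of 29 measured HIF target genes, 1 was called higher (Bnip3) and 0 lower, against 0.0752% and 0.015% of all genes. The median log2 difference of the list was 0.38, against -0.01 over all genes, and 25 of its 29 differences were positive (46.8% of all genes were). On 11 of the 29 genes all long-term arrays lay above all untreated arrays, which is 37.9% of the list against 2.99% of all genes. The opposite order was found in 1 gene of the list and in 3.04% of all genes. The mean log2 signal of the list was 6.98, 7.26, 6.91, 6.99 and 7.11 on the long-term arrays and 6.67, 6.72 and 6.50 on the untreated arrays, with no overlap.

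Of the 29 genes 4 had negative differences, down to -0.65, and 2 were lower at an unadjusted p under 0.05 in the limma fit. Members with positive differences that did not pass the test had the following values. Ero1a, which forms disulphide bonds in the endoplasmic reticulum, had log2 signals of 8.34 to 9.15 (median 8.52) in long-term and 7.79 to 7.99 in untreated cells, a difference of 0.72 ± 0.16 (adjusted p = 0.132). Pdk1, which keeps pyruvate out of mitochondria, differed by 0.93 ± 0.21 (adjusted p = 0.139), and its arrays did not overlap either. Egln3, an oxygen sensor that hydroxylates HIF, differed by 1.25 ± 0.29 (adjusted p = 0.16), with untreated array 1 at 5.22, just above the lowest long-term array at 5.19.

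Higd1a, a mitochondrial protein of the hypoxia response, differed by 1.35 ± 0.41, but untreated array 3 alone was at 5.66 while the other 2 untreated arrays had 7.71 and 7.53. Ankrd37 (0.99 ± 0.24) and the collagen lysyl hydroxylase gene Plod1 (0.73 ± 0.17) were higher on all 5 long-term arrays than on any untreated array. The peptide hormone gene Adm differed by 0.64 ± 0.26, of which long-term array 2 held the highest signal, 5.29 against 3.87 to 4.29 on the other long-term arrays. The prolyl hydroxylase genes P4ha1 (0.44) and Egln1 (0.40) and the annexin gene Anxa2 (0.17) had the same order of arrays.

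Among the most used hypoxia markers neither Car9 nor Vegfa passed. Car9, a carbonic anhydrase at the cell surface, had 3.51, 5.03, 4.42, 3.74 and 3.74 on the long-term arrays and 3.46, 3.52 and 3.27 on the untreated arrays. Long-term arrays 2 and 3 stood out, and array 1 lay within the untreated range, so the difference of 0.67 ± 0.27 did not pass (adjusted p = 0.429). Vegfa, the main ligand of the VEGF receptors, had 9.44 to 9.74 in long-term and 9.20 to 9.92 in untreated cells. The groups overlapped and the difference was 0.08 ± 0.17 (adjusted p = 0.914).

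Of 17 measured glycolysis genes, 2 were called higher (0.0752% of all genes were) and 14 had positive differences (46.8% of all genes had). Pfkp, the platelet form of phosphofructokinase that commits sugar to glycolysis, had log2 signals of 6.03, 6.09, 5.43, 5.95 and 6.42 on the long-term arrays and 4.96, 4.69 and 4.80 on the untreated arrays. The lowest long-term array, array 3, was still above the highest untreated one. The difference was 1.17 ± 0.17, or 2.24-fold (adjusted p = 0.0397).

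Aldoa, the aldolase that splits fructose bisphosphate, had 11.29, 11.58, 11.39, 11.61 and 11.36 in long-term cells and 10.89, 10.72 and 10.84 in untreated cells. Its arrays were narrowly spread within each group and did not overlap. The difference was 0.63 ± 0.09, or 1.54-fold (adjusted p = 0.0281).

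Over the 17 measured glycolysis genes the median log2 difference was 0.47, against -0.01 over all genes, with a range of -0.18 to 1.17. On 7 of them (41.2%, against 2.99% of all genes) every long-term array was above every untreated array, and on 0 was it the reverse. The list's mean signal was 7.67, 7.93, 7.69, 7.77 and 7.78 on the long-term arrays and 7.46, 7.29 and 7.35 on the untreated arrays. Array 2 was the highest of the long-term arrays on this list and on the HIF list.

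The members just short of the threshold were Pfkl, the liver form of phosphofructokinase, with 0.86 ± 0.16 (adjusted p = 0.0745), and the mutase gene Pgam1 with 0.38 ± 0.08 (adjusted p = 0.125). The kinase gene Pgk1 differed by 0.61 ± 0.14, the isomerase gene Tpi1 by 0.53 ± 0.12 and Ldha by 0.50 ± 0.12 (adjusted p = 0.144, 0.162 and 0.173). All of these had arrays that did not overlap. Pgam1 was measured by 3 clusters, with differences of 0.38, 0.39 and 0.38. The clusters with 0.38 had identical means and ranges in both groups, so they may not be separate measurements.

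Genes for the entry and trapping of glucose did not pass. The glucose transporter gene Slc2a1 had 8.76 to 9.11 in long-term and 8.15 to 8.84 in untreated cells, and Hk2, the hexokinase that traps glucose, had 5.49 to 5.88 in long-term and 4.80 to 5.67 in untreated cells. In both genes the groups overlapped, with differences of 0.30 ± 0.14 (adjusted p = 0.503) and 0.47 ± 0.17 (adjusted p = 0.368).

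**Figure D3:**
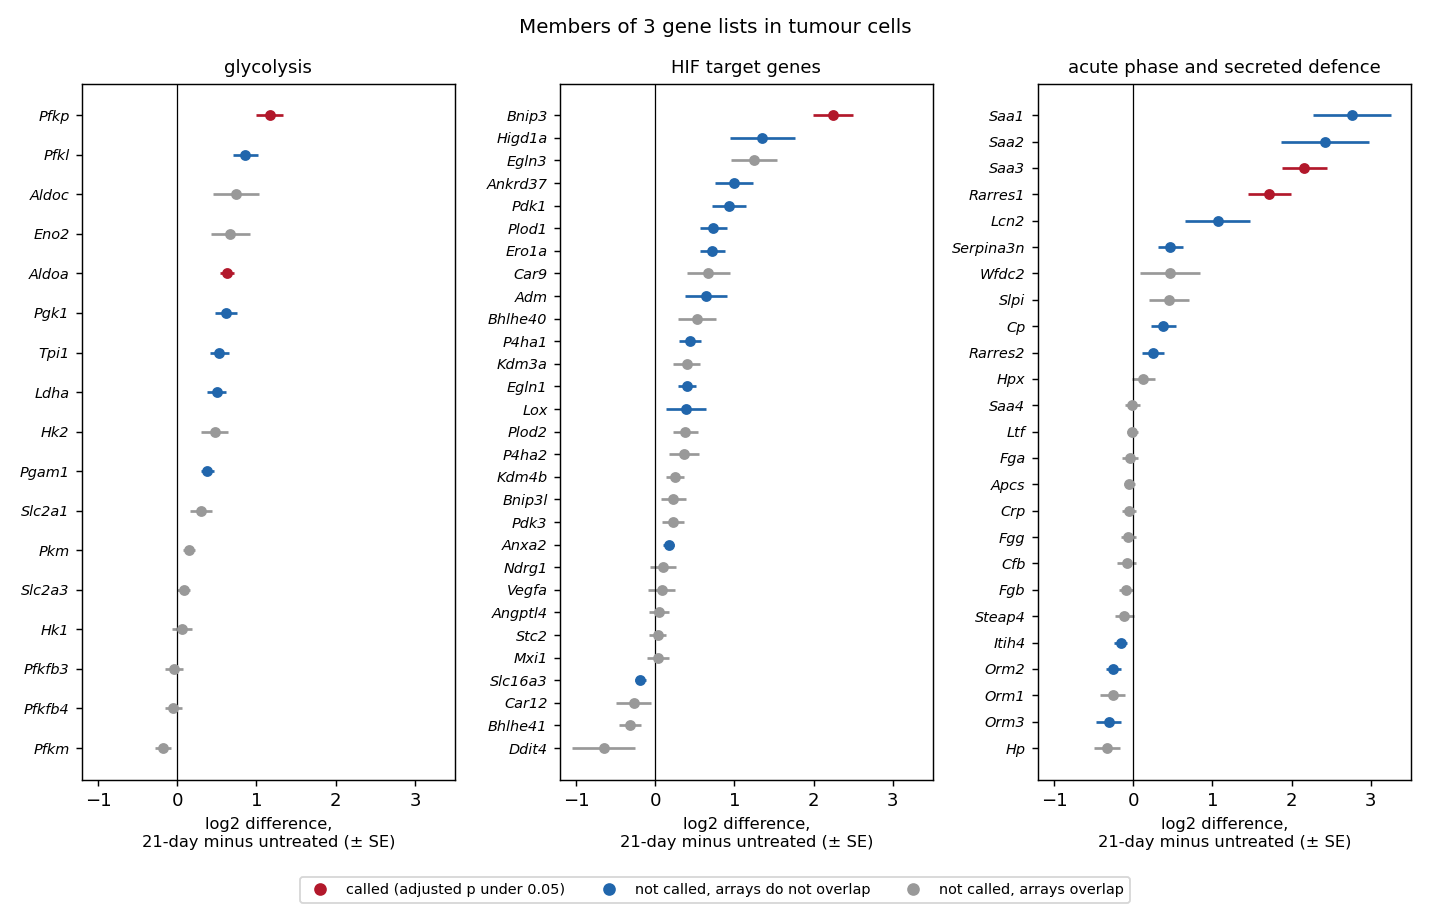
Points are log2 differences of long-term minus untreated tumour cells for each measured gene of 3 lists, with limma's standard errors as bars. Red genes were called, blue genes had arrays that did not overlap without being called, and grey genes had overlapping arrays. Most glycolysis and HIF target genes lie right of 0, while the acute phase list has a few large positive values and many near 0.

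Genes for moving lactate, which the series title bears on, gave no calls. Slc16a3, the lactate exporter MCT4 and a HIF target, had 4.66, 4.62, 4.56, 4.66 and 4.65 on the long-term arrays and 4.76, 4.86 and 4.85 on the untreated arrays. Every long-term array was below every untreated array, by a small difference of -0.19 ± 0.07 that did not pass (adjusted p = 0.407). These signals lay close to the median of all genes, 4.76. Slc16a1, the transporter MCT1, had 7.13 to 7.76 in long-term and 7.24 to 7.29 in untreated cells, so that the long-term arrays spanned the untreated ones (difference 0.20 ± 0.14, adjusted p = 0.674). Bsg, the chaperone of both transporters, differed by 0.25 ± 0.09 (adjusted p = 0.387) with arrays that did not overlap.

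Of the 11 measured genes of lactate transport and conversion 0 were called in the limma fit, 3 passed an unadjusted p under 0.05 (2 higher, 1 lower), and the median difference was -0.04. Genes of mitochondrial energy supply also gave 0 calls by limma. The median was 0.16 over 20 genes of the TCA cycle, 5 of them higher and 1 lower at an unadjusted p under 0.05, and 0.10 over 25 genes of oxidative phosphorylation, 3 of them higher at that level. Over all genes 5.97% were higher and 4.16% lower at that level. The TCA cycle genes Mdh1 (0.33 ± 0.13), Dld (0.32 ± 0.12) and Pdha1 (0.31 ± 0.12) had positive differences that did not pass, with overlapping arrays. Sdhd, a subunit of succinate dehydrogenase, was lower on all long-term arrays, with 7.81 to 8.10 in long-term and 8.21 to 8.80 in untreated cells (-0.58 ± 0.12, adjusted p = 0.105). The ATP synthase genes Atp5b (0.17 ± 0.07) and Atp5c1 (0.18 ± 0.07) were higher on all long-term arrays.

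Saa3, a serum amyloid A gene, rose 4.46-fold, the highest fold among called genes for secreted proteins. Serum amyloids are acute phase proteins, released during inflammation, and in mice Saa3 is the form made outside the liver. Saa3 had log2 signals of 7.11, 8.48, 7.65, 7.52 and 7.69 on the long-term arrays and 5.49, 5.47 and 5.63 on the untreated arrays. The untreated arrays lay close together and all long-term arrays were far above them, for a difference of 2.16 ± 0.28 (adjusted p = 0.0174).

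Saa1 had 6.30, 8.11, 5.20, 5.92 and 6.75 in long-term and 4.10, 3.54 and 3.44 in untreated cells, the latter below the median of all genes, 4.76. The arrays did not overlap, but the long-term ones spread widely, and the difference of 2.76 ± 0.49 did not pass (adjusted p = 0.0745). Saa2 differed by 2.42 ± 0.55 (adjusted p = 0.156), again with long-term array 2 highest at 8.52. Saa1 and Saa2 are near-identical in sequence, so that their probes may share signal.

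Rarres1, a retinoid-responsive gene, rose by 1.72 ± 0.27 (3.30-fold, adjusted p = 0.0397). Its signals were 6.49, 7.57, 6.76, 7.59 and 6.66 on the long-term arrays and 5.22, 5.35 and 5.30 on the untreated arrays. Long-term arrays 2 and 4 were the highest, and all 5 were above every untreated array. Lcn2, an iron-binding defence protein, differed by 1.07 ± 0.41 (adjusted p = 0.405), with long-term array 1 at 6.97 and the other long-term arrays at 4.55 to 5.50, against 4.28 to 4.49 in untreated cells.

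Over the 25 measured acute phase and secreted defence genes 2 were called higher (0.0752% of all genes were) and 0 lower. The median difference was -0.01, the same as over all genes. On 8 genes (32.0%, against 2.99% of all genes) all long-term arrays were above all untreated arrays, and on 3 they were below, an order found in 3.04% of all genes. The list's mean signal was 4.84, 5.01, 4.67, 4.72 and 4.82 on the long-term arrays and 4.42, 4.33 and 4.43 on the untreated arrays, with no overlap. Since 14 of its genes had negative differences and 11 positive ones, that mean reflects a few large rises. Such a gap was not particular to the lists described here. Means were 8.36 to 8.61 in long-term and 8.29 to 8.35 in untreated cells for the unfolded protein response. They were 4.76 to 4.81 and 4.65 to 4.68 for Wnt antagonists and targets, and 7.78 to 8.05 and 7.66 to 7.73 for autophagy genes. The autophagy list includes Bnip3, whose difference of 2.24 raises its mean, and its median difference was 0.13. Serpina3n, a protease inhibitor, differed by 0.47 ± 0.16, ceruloplasmin (Cp) by 0.38 ± 0.16 and the adipokine gene Rarres2 by 0.25 ± 0.14, all without passing.

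Cxcl14, a chemokine made by many epithelia, had log2 signals of 7.67, 7.02, 6.97, 6.81 and 7.38 on the long-term arrays and 5.66, 5.45 and 4.92 on the untreated arrays. Its groups were more than 1 log2 unit apart at their nearest arrays. The difference was 1.83 ± 0.21, or 3.55-fold (adjusted p = 0.00811). It was the 1 called gene among 31 measured chemokines (0.0752% of all genes were called higher), whose median difference was 0.11. Cxcl2 and Cxcl1, which attract neutrophils, differed by 1.00 ± 0.33 and 0.60 ± 0.24 (adjusted p = 0.34 and 0.429) and overlapped between groups because untreated array 1 was high, at 5.99 and 9.52.

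Ptgs2, the inducible cyclooxygenase that starts prostaglandin synthesis, had 11.75, 11.69, 11.47, 11.48 and 11.96 in long-term and 10.96, 10.88 and 10.85 in untreated cells. The groups did not overlap and the difference was 0.77 ± 0.12, or 1.71-fold (adjusted p = 0.0397).

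The highest rise among called genes was that of Inmt, an enzyme that methylates indoleamines such as tryptamine. It had 6.46, 5.83, 5.13, 6.74 and 5.37 on the long-term arrays and 3.90, 3.38 and 3.50 on the untreated arrays. The untreated signals were below the median of all genes, 4.76. All long-term arrays were above all untreated arrays, with a spread among the long-term arrays (SD 0.69) larger than among the untreated arrays (SD 0.27). The difference was 2.31 ± 0.31, or 4.96-fold (adjusted p = 0.0174).

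Further rises were smaller. Prune2 had 7.81, 7.84, 8.08, 7.89 and 8.32 in long-term and 7.22, 6.93 and 6.91 in untreated cells (difference 0.97 ± 0.13, adjusted p = 0.0174). Nectin2, an adhesion molecule that is also a ligand of receptors on lymphocytes, had 6.36, 6.28, 6.22, 6.50 and 6.12 in long-term and 5.25, 5.38 and 5.63 in untreated cells (0.88 ± 0.11, adjusted p = 0.0174). The groups did not overlap in either gene.

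Rgl1, an exchange factor for Ral GTPases, had 7.87, 7.87, 7.80, 7.97 and 7.40 in long-term and 7.02, 7.14 and 6.62 in untreated cells (0.85 ± 0.13). Cavin2, a coat protein of caveolae, had 9.82, 9.71, 9.86, 9.90 and 10.18 in long-term and 9.08, 8.94 and 9.35 in untreated cells (0.77 ± 0.12). Both genes had an adjusted p of 0.0397, the highest among the calls, and array 5 was the odd long-term array in each, lowest for Rgl1 and highest for Cavin2.

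Urod, which makes coproporphyrinogen on the way to heme, had 6.17, 6.62, 6.29, 6.50 and 6.47 in long-term and 5.78, 5.36 and 5.59 in untreated cells (0.83 ± 0.13, adjusted p = 0.0397). It was the 1 called gene among 14 measured genes of heme synthesis and use (0.0752% of all genes were called higher), whose median difference was 0.09. Nudt9, which cleaves ADP-ribose, had 8.53, 8.61, 8.50, 8.55 and 8.32 in long-term and 7.93, 7.71 and 7.92 in untreated cells (0.65 ± 0.09, adjusted p = 0.0304). Neither gene's arrays overlapped.

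Hspa1a, the inducible Hsp70 chaperone of the heat shock response, had the smallest p of all genes. Its log2 signals were 8.22, 8.07, 8.15, 8.22 and 8.39 on the long-term arrays and 7.03, 7.04 and 7.15 on the untreated arrays. Within each group the arrays differed by little, and the groups were well apart. The difference was 1.14 ± 0.08, or 2.20-fold (adjusted p = 0.000152). Hspa1a has a near-identical neighbour, Hspa1b, that was not measured apart from it here.

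The Hspa1a promoter is shown with the core of a heat shock element, GAANNTTC, in capitals. The letters read the same on both strands, and this RefSeq window (GRCm38.p6) is chr17:34972107-34972406 on the minus strand.
Hspa1a: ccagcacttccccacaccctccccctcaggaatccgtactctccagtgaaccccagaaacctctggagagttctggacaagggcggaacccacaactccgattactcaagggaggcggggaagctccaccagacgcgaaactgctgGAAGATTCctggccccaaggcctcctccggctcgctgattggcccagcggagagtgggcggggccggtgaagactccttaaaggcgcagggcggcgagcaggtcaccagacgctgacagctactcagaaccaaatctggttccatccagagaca
It held 1 match. Of all mouse windows 7.86% held this motif. Counted by gene, over any of its windows, it was 9.04% of all genes, 8 of 9 listed heat shock genes and 2 of 15 genes called higher.

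Of 12 measured heat shock genes 1 was called higher (0.0752% of all genes were), 2 had long-term arrays all above untreated arrays (16.7%, against 2.99% of all genes), and the median difference was 0.07. The small heat shock protein gene Hspb1 differed by 0.85 ± 0.15 (adjusted p = 0.0745, arrays without overlap) and Cryab by 0.44 ± 0.17 (adjusted p = 0.406), while Bag3, a cochaperone, had -0.27 ± 0.16. Immediate early genes, which cells switch on within minutes of stress and also during tissue dissociation, were positive in 19 of 21 cases (46.8% of all genes were). Their median was 0.29, and limma called 0 of them. At an unadjusted p under 0.05 there were 5, all higher (5.97% of all genes were). The mean signal of the 21 genes was 9.39, 8.79, 9.07, 8.80 and 9.24 on the long-term arrays and 9.01, 8.64 and 8.67 on the untreated arrays. That level was higher on average in long-term cells but overlapped between groups, and its part in the Hspa1a result was not tested.

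Among the immediate early genes Dusp1, a phosphatase of MAP kinases, had 10.67 to 11.40 (median 11.07) in long-term and 9.67 to 10.61 in untreated cells, a difference of 0.86 ± 0.19 (adjusted p = 0.14). The AP-1 gene Jun (0.57 ± 0.16) and Zfp36 (0.45 ± 0.15), which speeds the decay of messenger RNA, had the same order of arrays, although the nearest arrays of Zfp36 were both at 9.29. Of 18 genes of the unfolded protein response 0 were called in the limma fit, and the median was 0.18. At an unadjusted p under 0.05 there were 8, all higher (5.97% of all genes were). The disulphide isomerase gene Pdia4 differed by 0.37 ± 0.11 (adjusted p = 0.252). A further Pdia4 cluster, not used for the count of genes, gave -0.88. Its signals were 3.54 to 4.22 in long-term and 3.58 to 6.76 in untreated cells.

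Falls were few. Mmp12, the elastase best known from macrophages, had 3.66, 3.77, 4.20, 3.65 and 4.02 on the long-term arrays and 5.05, 4.66 and 5.58 on the untreated arrays. Every long-term array was below every untreated array, for a difference of -1.24 ± 0.19 (0.424-fold, adjusted p = 0.0397). All the long-term signals were below the median of all genes, 4.76. Mmp12 was the 1 call among 25 matrix proteases and inhibitors (0.015% of all genes were called lower), whose median was -0.03. Of 19 macrophage markers 0 were called in the limma fit (0.0903% of all genes were) and 0 were at an unadjusted p under 0.05 (10.1% of all genes were). Their median difference was 0.02. The mean level of those markers was 4.44, 4.87, 4.87, 4.74 and 4.77 on the long-term arrays and 4.85, 4.35 and 4.82 on the untreated arrays, so it overlapped between groups. Untreated array 2 was the lowest untreated array both for this mean and for Mmp12. A part of macrophages in the Mmp12 result was not tested.

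Scarna13, a guide RNA of Cajal bodies, had 7.89, 7.80, 8.45, 8.32 and 8.52 in long-term and 9.84, 9.69 and 9.63 in untreated cells (-1.53 ± 0.19, adjusted p = 0.0174). Snora44, an H/ACA box RNA of the class that guides pseudouridine formation and a name added after its values were seen, had 8.15, 7.49, 7.96, 7.18 and 7.98 in long-term and 10.18, 10.36 and 10.22 in untreated cells. That is a difference of -2.50 ± 0.39, or 0.176-fold (adjusted p = 0.0397). The untreated arrays of both RNAs lay close together and more than 1 log2 unit above any long-term array.

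Other small RNAs gave no further call. Of 20 measured H/ACA box RNAs 1 was called lower (0.015% of all genes were) and 3 were lower on all long-term arrays (15%, against 3.04% of all genes), with a median of -0.20. Of 31 C/D box RNAs 0 were called in the limma fit, 1 was lower on all long-term arrays, and the median was 0.05. Only 3 Cajal body RNAs were measured, with a median of -0.63.

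The genes with the next smallest p among those lower in long-term cells did not pass. The phosphate transporter gene Slc20a1 had 8.72 to 9.0 in long-term and 9.41 to 9.79 in untreated cells (-0.71 ± 0.12, adjusted p = 0.0734). Terc, the RNA of telomerase, had 7.50 to 8.05 in long-term and 8.51 to 8.81 in untreated cells (-0.89 ± 0.16, adjusted p = 0.0745). The thromboxane receptor gene Tbxa2r differed by -0.61 ± 0.11, Fkbpl by -0.90 ± 0.18 and Endov, an endonuclease gene, by -0.67 ± 0.13, all with arrays that did not overlap.

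The receptors that nintedanib blocks were not among the called genes, which were 0.0903% of all genes. Kdr, the main VEGF receptor of endothelium, had 3.69 to 4.05 in long-term and 3.71 to 4.11 in untreated tumour cells, while its mean in endothelial cells was 10.11 after long-term treatment and 10.23 without. Pdgfra had 9.82, 10.22, 9.93, 9.63 and 9.88 on the long-term arrays and 9.50, 9.21 and 10.03 on the untreated arrays (0.32 ± 0.18, adjusted p = 0.581), and Fgfr1 had 8.91 to 9.29 in long-term and 9.17 to 9.47 in untreated cells (-0.14 ± 0.10, adjusted p = 0.653). The groups overlapped in all 3 genes.

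Of the 15 measured target receptors and coreceptors 0 were called in the limma fit, 1 was at an unadjusted p under 0.05, and the median difference was -0.06. The shares of all genes were 0.0903% called and 10.1% at that unadjusted level, 5.97% higher and 4.16% lower. Among 17 VEGF, FGF and PDGF ligands 0 were called, 2 were at an unadjusted p under 0.05, both lower, and the median was -0.01. Pgf, a VEGF family ligand, differed by -0.30 ± 0.11 (adjusted p = 0.387), Fgf2 by -0.75 ± 0.28 (adjusted p = 0.393) and Pdgfd by -0.22 ± 0.10. Fgf7 was the most variable, with 5.68 to 7.25 (median 6.74) in long-term cells and 5.16, 4.24 and 7.13 in untreated cells (1.17 ± 0.55, adjusted p = 0.498).

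Feedback genes of the ERK pathway, which report signalling below these receptors, gave 0 calls by limma among 16, with a median of -0.02. An unadjusted p under 0.05 was found for 1 of them. The shares of all genes were 0.0903% called and 10.1% at that unadjusted level. Spry4, an inhibitor induced by ERK, had 5.75, 5.73, 5.95, 6.26 and 5.85 in long-term and 5.99, 6.31 and 6.42 in untreated cells (-0.33 ± 0.13, adjusted p = 0.406). The groups overlapped through long-term array 4. The phosphatase gene Dusp6 differed by 0.16 ± 0.13, Ccnd1 by 0.19 ± 0.10, Etv1 by 0.33 ± 0.18 and Spred2 by -0.62 ± 0.33, which rested on untreated array 2 at 10.70 beside 9.27 and 8.98. Further clusters, not used for the count of genes, gave 0.02 for Etv1 and -0.24 for Spred2.

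Receptors and ligands that could carry growth signals past the blocked ones gave 0 calls among 24 by limma, with a median of 0.04. An unadjusted p under 0.05 was found for 3, all higher. The shares of all genes were 0.0903% called and 5.97% higher at that unadjusted level. The EGF receptor ligand genes Hbegf and Ereg differed by 0.41 ± 0.15 (adjusted p = 0.382) and 0.52 ± 0.20 (adjusted p = 0.407), and their groups overlapped. Egfr had -0.24 ± 0.19, Met 0.09 ± 0.10 and Axl 0.15 ± 0.08.

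Other angiogenic factors had a median of 0.24 over 19 genes, with 0 called in the limma fit, 5 higher at an unadjusted p under 0.05 (5.97% of all genes were) and 3 higher on all long-term arrays (15.8%, against 2.99% of all genes). Sema3c, a secreted semaphorin, had 6.85, 7.56, 6.95, 6.54 and 7.65 on the long-term arrays and 5.85, 5.81 and 6.02 on the untreated arrays (1.22 ± 0.22, adjusted p = 0.0745). Thbs1, whose product thrombospondin inhibits vessel growth, had 6.21 to 7.74 (median 7.09) in long-term and 5.55 to 6.11 in untreated cells (1.19 ± 0.30, adjusted p = 0.196). Its relative Thbs2 differed by 1.06 ± 0.30 (adjusted p = 0.239), with untreated array 3 at 6.0 within the long-term range of 5.80 to 6.79, and Apln by 0.39 ± 0.15.

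Epithelial and mesenchymal genes gave no calls. Among 24 epithelial genes 0 were called in the limma fit, 2 were at an unadjusted p under 0.05, both lower, and the median was 0.09. Among 20 mesenchymal genes 0 were called as well, 2 had an unadjusted p under 0.05, both lower, and the median was 0.04. The shares of all genes were 0.0903% called and 4.16% lower at that unadjusted level. Vim, an intermediate filament of mesenchymal cells, had 12.09 to 12.19 in long-term and 12.09 to 12.19 in untreated cells. Cdh1, the epithelial cadherin, had 7.16 to 8.18 in long-term cells and 6.91, 6.88 and 8.62 in untreated cells, so untreated array 3 was the highest of all 8.

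Zeb1, a repressor of epithelial genes, had -0.28 ± 0.11 (adjusted p = 0.434), the desmosome gene Pkp1 -0.64 ± 0.24 (adjusted p = 0.4) and Krt18 -0.36 ± 0.13 (adjusted p = 0.379). Collagens had a median of 0.01 over 19 genes with 0 calls by limma (0.0903% of all genes) and 1 gene at an unadjusted p under 0.05 (10.1% of all genes). That gene, Col12a1, had 4.61 to 5.96 (median 4.88) in long-term and 4.02 to 4.22 in untreated cells (1.00 ± 0.29, adjusted p = 0.255). Ccn2, a matrix protein induced by TGF-beta, differed by 0.97 ± 0.30 (adjusted p = 0.299), and Notum, which inactivates Wnt proteins, by 0.95 ± 0.26 (adjusted p = 0.233), both without overlap of arrays.

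Proliferation genes set the long-term arrays apart from each other. The mean log2 signal of 31 mitosis genes was 6.59, 7.14, 7.29, 7.40 and 6.32 on the long-term arrays and 6.50, 6.63 and 6.57 on the untreated arrays. Arrays 2, 3 and 4 were above all untreated arrays, array 1 was at their level and array 5 below them, so the SD was 0.47 among long-term arrays and 0.06 among untreated arrays. The list's median difference was 0.39, with 30 of 31 positive (46.8% of all genes were) and 0 called in the limma fit. At an unadjusted p under 0.05 there were 7, all higher (5.97% of all genes were). DNA replication genes showed the same order of arrays, with 6.65, 6.92, 7.02, 7.16 and 6.56 in long-term and 6.68, 6.64 and 6.54 in untreated cells.

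Mki67, expressed in dividing cells, had 7.75, 8.08, 8.39, 8.33 and 7.22 in long-term and 7.63, 7.94 and 7.97 in untreated cells (0.11 ± 0.24, adjusted p = 0.914). The centrosome kinase gene Nek2 had 5.20 to 5.94 (median 5.53) in long-term and 4.98 to 5.07 in untreated cells (0.56 ± 0.14, adjusted p = 0.196), and the kinesin gene Kif2c differed by 0.68 ± 0.22, both without overlap of arrays. In these bulk samples a change in the number of dividing cells and a change in RNA per dividing cell cannot be told apart. Targets of p53, which restrain division, were lowest on long-term arrays 2, 3 and 4 and highest on arrays 1 and 5, with list means of 7.74, 7.46, 7.39, 7.33 and 7.65, against 7.64, 7.55 and 7.35 on the untreated arrays.

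**Figure D4:**
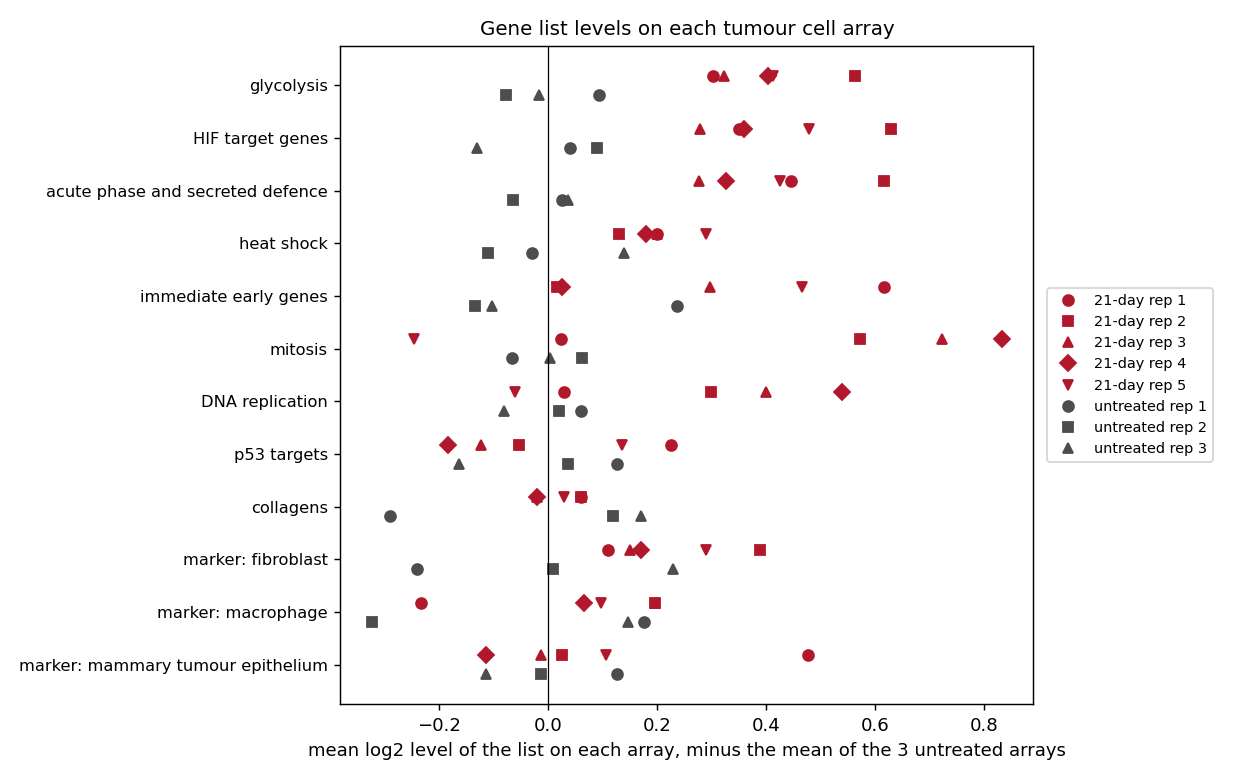
Each mark is 1 array. The horizontal axis gives the mean log2 signal of a gene list on that array minus the mean of the 3 untreated arrays, with long-term arrays in red above and untreated arrays in grey below for each list. The means of the glycolysis, HIF target and acute phase lists separate the groups, while mitosis and DNA replication spread the long-term arrays. In the acute phase list 11 genes had positive and 14 negative differences, with a median of -0.01, so its mean reflects a few large rises.

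Of the markers of other cell types, in 9 lists, 0 were called in the limma fit, and each list had 0 to 2 genes at an unadjusted p under 0.05. The shares of all genes were 0.0903% called and 10.1% at that unadjusted level. Fibroblast markers had 12 of 13 differences positive (46.8% of all genes were), a median of 0.10 and 2 genes higher on all long-term arrays (15.4%, against 2.99% of all genes). Postn, a matrix protein of fibroblasts, had 7.87, 8.52, 7.58, 7.50 and 8.17 on the long-term arrays and 6.83, 7.46 and 6.50 on the untreated arrays (1.00 ± 0.24, adjusted p = 0.18), and Thy1 differed by 0.43 ± 0.18 (adjusted p = 0.425). The mean of the fibroblast list was 6.13 to 6.41 in long-term and 5.78 to 6.25 in untreated cells. Endothelial markers had means of 4.10 to 4.26 in long-term and 4.16 to 4.25 in untreated tumour cells, and a median difference of -0.02 over 18 genes. Neutrophil markers had a median of -0.06 over 11 genes, of which Csf3r was lower on all long-term arrays (-0.27 ± 0.09, adjusted p = 0.311).

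The 21-day profile was next set against the short-term tumour cells, treated for 7 days. The comparisons with untreated cells share the 3 untreated arrays, so the difference between the times was tested as long-term minus short-term cells, in which the untreated arrays cancel. That difference was called for 243 genes (1.22%), while short-term against untreated cells gave 101 calls (0.507%). Among the 18 genes called at 21 days, 9 also differed from 7 days in the direction of their 21-day change, 1 differed in the opposite direction and 8 did not pass. The long-term arrays enter both tests, so the shared calls are not independent. The 243 calls became 95 to 156 when short-term array 1, 2, 3 or 4 or long-term array 2, 3 or 4 was left out.

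Genes that were higher at 21 than at 7 days were Inmt, Bnip3, Saa3, Rarres1, Prune2, Nectin2, Rgl1, Cavin2 and Nudt9. Inmt had 3.82, 3.63, 3.64 and 3.61 in short-term cells, within the untreated range, and was higher in long-term than in short-term cells by 2.23 log2 units (adjusted p = 0.004). Saa3 differed between the times by 1.87 (adjusted p = 0.00564), with 7-day arrays at 5.19 to 6.28. Bnip3 took a middle place at 7 days, with 6.61, 6.75, 6.83 and 7.11, all above the untreated and below the long-term arrays (long-term minus short-term 1.37, adjusted p = 0.0163). List means on the short-term arrays were 6.87 to 6.99 for HIF target genes and 7.55 to 7.66 for glycolysis genes, also above all untreated arrays. The median of long-term minus short-term cells was 0.08 over the HIF list and 0.20 over the glycolysis list.

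Rgl1 moved in opposite directions at the 2 times. It had 5.20, 5.30, 5.30 and 5.27 on the short-term arrays, below all untreated arrays, with a difference from untreated cells of -1.66 ± 0.14 at 7 days (adjusted p = 0.000538) and of 0.85 ± 0.13 at 21 days. The difference between the times was 2.51 (adjusted p = 2.09e-06). Prune2 and Nudt9 also had negative differences at 7 days, -0.41 ± 0.13 and -0.30 ± 0.10, which did not pass (adjusted p = 0.238 and 0.23).

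Another group of genes had changed by day 7. Cxcl14 (1.51 ± 0.21), Pfkp (1.36 ± 0.18), Urod (0.97 ± 0.13), Hspa1a (1.63 ± 0.08) and Mmp12 (-1.06 ± 0.20) were called at 7 days in the direction they had at 21 days. For Cxcl14, Pfkp, Urod and Mmp12 the difference between the times was 0.32, -0.20, -0.14 and -0.18 and did not pass (adjusted p = 0.585, 0.733, 0.742 and 0.798). Hspa1a was lower at 21 than at 7 days by -0.50 (adjusted p = 0.00905), with short-term arrays at 8.66, 8.83, 8.66 and 8.69, above all long-term arrays.

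Some genes without a call at 21 days differed between the times. Spry4 had 5.15 to 5.36 on the short-term arrays (-1.03 ± 0.13 against untreated, adjusted p = 0.0099) and was higher in long-term than in short-term cells by 0.69 (adjusted p = 0.0171), and Etv1 likewise by 1.29 (adjusted p = 0.004). Mitosis genes had list means of 6.0 to 6.37 at 7 days, below all untreated arrays and all long-term arrays but array 5, and 4 of 31 were called higher in long-term than in short-term cells, among them Nek2 by 1.00 and Ect2, a regulator of cell division, by 0.99. Postn was lower in long-term than in short-term cells by -1.02 (adjusted p = 0.0493).

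**Figure D5:**
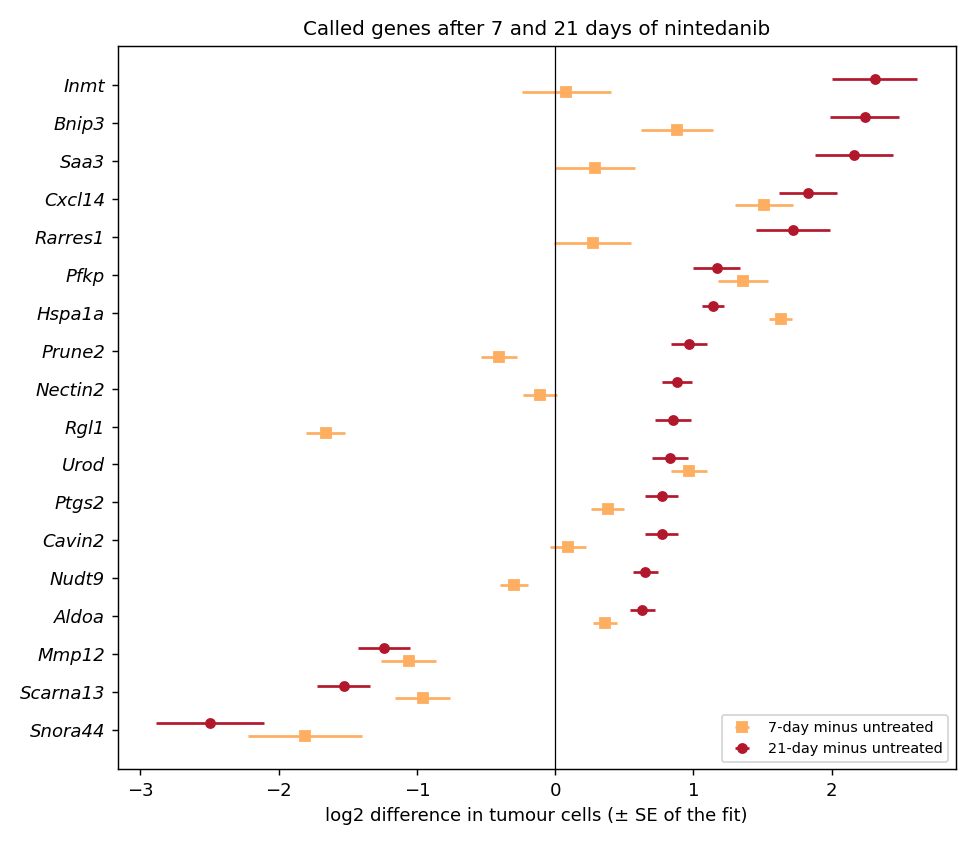
For each of the 18 called genes the log2 difference from untreated tumour cells is plotted at 7 days (orange squares) and 21 days (red circles), with limma's standard errors. Both comparisons use the same 3 untreated arrays. Rgl1, Prune2, Nectin2 and Nudt9 have 7-day values left of 0, and Inmt, Saa3, Rarres1 and Cavin2 have 7-day values of 0.08 to 0.29.

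Whether the 21-day change differed between tumour and endothelial cells was tested for every gene over all 23 arrays. The test called 0 genes (0.0%) by limma, 1063 having an unadjusted p under 0.05 and a lowest adjusted p of 0.207. Leaving out single arrays gave 0 to 5 calls, with 5 when untreated endothelial array 1 was left out. Endothelial cells alone also gave 0 calls (0.0%) for long-term against untreated, with a lowest adjusted p of 0.131. Of the 18 genes called in tumour cells 13 had an endothelial difference of the same sign and 5 of the other.

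None of these genes was shown to differ between the cell types. Bnip3 differed by 2.24 ± 0.25 in tumour cells and by 1.54 ± 0.25 in endothelial cells. For Hspa1a the differences were 1.14 ± 0.08 in tumour and 0.81 ± 0.34 in endothelial cells, and for Aldoa 0.63 ± 0.09 in tumour and 0.32 ± 0.11 in endothelial cells. Pfkp had 1.17 ± 0.17 in tumour and -0.15 ± 0.33 in endothelial cells. Scarna13 had -1.53 ± 0.19 in tumour and 0.66 ± 0.40 in endothelial cells, which had the lowest adjusted p of the difference, 0.207, together with Mmp12 (-1.24 ± 0.19 in tumour and -0.04 ± 0.10 in endothelial cells). The median of the glycolysis list was 0.47 in tumour and 0.35 in endothelial cells, and that of the mitosis list was 0.39 in tumour and -0.51 in endothelial cells.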

How the data were processed

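The data are 23 arrays of sorted cells. Deposited were log2 signals, 1 per transcript cluster, which the authors made with RMA and oligo per the submitters' processing notes, without a version. RMA makes the distribution of signals equal on all arrays, so every change is relative to the rest of the array. Per the labels, targets were made from total RNA with NuGEN kits.

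The platform annotation gave 1 gene for 21789 of 35556 clusters, several for 1621 and none for 12146. Names were brought up to date with RefSeq (GRCm38.p6), where 21698 of those clusters were found. For 999 genes with more clusters the one with the highest mean over the 23 arrays was kept, leaving 19938 genes and no filter on dim signals.

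The 12 tumour cell arrays entered a single fit in limma 3.58.1 (R 4.3.3) with a shared estimate of the spread, and the difference between cell types used all 23 arrays. The two-sided p-values were adjusted over all genes (Benjamini-Hochberg) and called under 0.05. Standard errors are those of the fit, and the number of arrays limits the precision. In simulated data for long-term against untreated tumour cells, over 19938 genes, limma recovered 87% of 100 genes changed 2-fold and 100% of 100 changed 4-fold. There 3.11% of all calls were false. The simulated noise was normal, independent between arrays and equal in spread across groups, so these shares need not hold for the real arrays. In the real comparison 45 genes were at least 2-fold higher and 20 at least 2-fold lower, and 10 of these were called.

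The text names all called genes except predicted genes and symbols starting with Mir or Snor, 8 genes lower in long-term cells filled up by the smallest p, up to 4 members of a list by the smallest p, and a fixed panel. Further members were named after their values were seen, because their arrays did not overlap or an array stood apart. The comparison, the lists (756 of 799 symbols measured, 1 through an older name) and the naming rule were chosen with earlier results of these data known. The labels do not say whether replicate numbers pair the arrays, and the main fit did not pair them. Same-numbered long-term and untreated arrays had deviations from their group means that correlated at -0.102, -0.0794 and 0.0243. These pairs are too few to decide whether the numbers mark a pairing.

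The alternatives were a fit of the 8 arrays alone or of all 23, a filter at the 30th percentile of mean level, array weights, a variance trend, averaging a gene's clusters, a second quantile normalization, median centring, the omission of single arrays and a block for the replicate number. For the differences between times and cell types, omitting arrays and the block were added after the data were seen.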

Additional observations from a re-analysis of the deposited data

Results flagged for a closer look

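Genes named above whose long-term arrays differed from their short-term arrays, as a test of the 21-day against the 7-day effect, are given as values of long-term minus short-term tumour cells on the log2 scale. Of the 132 genes examined 26 passed an adjusted p under 0.05 in limma, as did 243 (1.22%) of all genes. Many of the 132 were named for their difference from untreated cells, and the long-term arrays enter both tests, so the 2 shares cannot be compared. Among the called genes these were Inmt (2.23), Bnip3 (1.37), Saa3 (1.87), Rarres1 (1.45), Prune2 (1.38), Nectin2 (0.98), Rgl1 (2.51), Cavin2 (0.68), Nudt9 (0.95) and, in the negative direction, Hspa1a (-0.50).

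Further genes higher in long-term than in short-term cells were Saa1 (2.61), the growth factor gene Fgf7 (2.80), Ptgfr (1.59), Ramp3 (1.47), Thbs2 (1.39), Etv1 (1.29), Nek2 (1.00), Ect2 (0.99), Pdgfra (0.98), Gpr161 (0.94), Apln (0.79) and Spry4 (0.69). Those lower in long-term than in short-term cells were Pkp1 (-1.07), Postn (-1.02), the VEGF coreceptor gene Nrp1 (-0.97) and Slc20a1 (-0.75).

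Single long-term arrays stood apart in 7 of the 132 genes, where the gap to the nearest of the other arrays took up more than 0.71 of the group's range. Chance alone flags about 1 in 20 groups. Met was lowest on array 1, at 9.06 against 9.30 to 9.32 (share of the range 0.932), and Gpr161 also on array 1, at 5.81 against 6.27 to 6.38 (0.80). Epcam was highest on array 1, at 5.26 against 4.07 to 4.41 (0.716), and Lox, a collagen crosslinking enzyme, on array 2, at 4.51 against 3.60 to 3.71 (0.877). Fgfr1 and Spred2 were lowest on array 4, at 8.91 against 9.20 to 9.29 (0.757) and 8.70 against 9.04 to 9.15 (0.75). Csf1r was highest on array 5, at 4.69 against 4.47 to 4.53 (0.731).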

How the results depend on the processing

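The 18 called genes kept their direction in all 21 alternatives, which reuse the arrays by which these genes were picked. The number of calls was 18 with the mean of clusters and with median centring, 22 with the filter, 27 with the trend and 13 with renewed quantile normalization. It was 2 with the 8 arrays alone (Hspa1a and Snora44), 9 in the fit of all 23 arrays (Bnip3, Inmt, Aldoa, Rarres1 and Mmp12 among them), 10 with array weights and 2 with a replicate block (Cxcl14 and Hspa1a). Leaving out single arrays gave 5 to 30 calls. The fit of 8 arrays has fewer samples to estimate the spread from, and the cause of the other changes was not tested. By gene, Hspa1a was called in 20 of 21 alternatives, Bnip3 and Cxcl14 in 19, Inmt and Nectin2 in 17, Saa3 and Scarna13 in 16, Prune2 in 15 and Aldoa in 13. Ptgs2 and Nudt9 were called in 9, Urod, Mmp12 and Snora44 in 8, Pfkp in 7, Rarres1 in 6, Rgl1 in 5 and Cavin2 in 4. The difference between tumour and endothelial cells gave 0 calls with the filter and with the block, 2 with array weights, and 0 to 5 when single arrays were left out. The difference between 21 and 7 days gave 312 calls with the filter, 357 with array weights, 276 with the block and 95 to 302 when single arrays were left out. With 3 untreated arrays, calls for genes of small change or wide spread are limited by the number of arrays.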

Other observations

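Between an adjusted p of 0.05 and 0.1 lay 41 genes, 34 higher and 7 lower in long-term tumour cells. The 10 with the largest differences, picked after the values were seen, included Saa1 and Sema3c, described above. Receptor genes and their partners were among them. Ramp3, a partner protein of the calcitonin receptor family that forms a receptor for adrenomedullin, had 7.18 to 8.63 (median 7.72) in long-term and 5.52 to 6.71 in untreated cells (1.61 ± 0.30, adjusted p = 0.0745). Ptgfr, the receptor for prostaglandin F, had 5.16 to 5.81 (median 5.26) in long-term and 3.84 to 4.81 in untreated cells (1.15 ± 0.20, adjusted p = 0.0745). The ciliary receptor gene Gpr161 had 5.81 to 6.38 in long-term and 4.87 to 5.34 in untreated cells (1.06 ± 0.17, adjusted p = 0.0563). In all 3 genes the long-term arrays were above all untreated arrays, and all 3 were higher at 21 than at 7 days.

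Ace, the angiotensin-converting enzyme, had 6.76 to 7.70 (median 7.13) in long-term and 5.57 to 6.01 in untreated cells (1.46 ± 0.26, adjusted p = 0.0745). The adhesion gene Tns4 had 7.42 to 8.25 in long-term and 5.43 to 7.16 in untreated cells (1.73 ± 0.34), and the fatty acid elongase gene Elovl7 had 5.90 to 6.73 in long-term and 4.62 to 5.15 in untreated cells (1.29 ± 0.24). Ercc6l, a helicase of dividing cells, had 4.47 to 5.44 in long-term and 3.67 to 3.94 in untreated cells (1.06 ± 0.20). The precursor of a microRNA, Mir181b-2, was lower on all long-term arrays, with 4.12 to 5.23 in long-term and 5.74 to 6.82 in untreated cells (-1.82 ± 0.34, adjusted p = 0.0819).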
